A study of Mus musculus with 6 samples.

Results

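Adgre1, Cd68, Marco, Ms4a7 and Cd14 are 5 genes used to mark macrophages, the phagocytes that tissues keep for clearing dead cells, debris and microbes. In bone marrow of mice with leukemia, all 5 had lower read counts in the libraries labelled KO than in those labelled Con. They are 5 of the 9295 genes in the deposited count table and were found there by their symbols. They were selected on their difference between the groups, seen in earlier results of these data, so this difference is described here without a test. Each of the 5 passed the filter on low counts.

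The libraries labelled KO (n = 3) carry a Papola knockout, and those labelled Con (n = 3) a Papola gene with both copies floxed and no stated deletion. Papola encodes poly(A) polymerase alpha, which adds the poly(A) tail to new messenger RNA, and the study asked what it does in this leukemia. Per the labels all samples are bone marrow, with the cell type given as leukemia. The labels used here name no Cre driver, no way in which the leukemia was started, and no strain, age or sex. They do not state whether a library came from 1 mouse or from a pool, so the spread between libraries may be technical.

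Macrophages of the marrow sit at the centre of erythroblast islands, where they engulf expelled nuclei and recycle iron, and they clear aged neutrophils. The proteins of the 5 genes work at different points of the phagocyte. Adgre1 encodes F4/80, a surface receptor of the adhesion G protein-coupled receptor family that has long served to stain mouse macrophages. Marco encodes a class A scavenger receptor that binds bacteria and particles. Cd14 encodes a lipid-anchored co-receptor that hands lipopolysaccharide to the complex of TLR4 and MD-2, and monocytes and neutrophils carry it too. Cd68 encodes a glycoprotein of late endosomes and lysosomes, related to the LAMP proteins, and Ms4a7 a membrane-spanning protein of the MS4A family.

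Counts summed to 8875022 to 9768143 per library labelled KO and 11253932 to 11436216 per library labelled Con. Papola had 2928, 2929 and 2440 counts in KO replicates 1, 2 and 3, and 3751, 3779 and 3642 in Con replicates 1, 2 and 3. Scaled to library composition it was not lower in KO (339 ± 23.8 counts per 1000000 in KO against 291 ± 6.42 in Con, SD, n = 3 each; log2 fold change 0.22), though with library size only the sign turned (-0.13). These counts cover the whole gene and do not check the labels, and every direction below rests on the labels alone. Across the transcriptome, 39.6% of 8358 tested genes passed an adjusted p of 0.05 as higher and 42.4% as lower in the libraries labelled KO (edgeR quasi-likelihood test). With library size as the only scaling, 2488 genes were higher and 4476 lower, in place of 3310 and 3544, and the median log2 fold change of all genes was -0.41 in place of -0.06. Con replicates 2 and 3 differed far less from each other (chi-square per degree of freedom 1.68) than any other pair of a group (17.7 to 23.7), and results with both summed as 1 sample are among the alternatives.

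Adgre1 (gene ID 13733), on the surface of the macrophage, had 964, 1388 and 1267 counts in KO replicates 1, 2 and 3, and 10664, 12981 and 12578 counts in Con replicates 1, 2 and 3. Scaled for depth and composition to counts per 1000000 (CPM), the levels were 113, 171 and 163 CPM in the libraries labelled KO and 808, 1019.8 and 1006 CPM in those labelled Con. No library of one group reached the range of the other, and the lowest Con value was 4.72 times the highest KO value. The log2 fold change, KO minus Con, was -2.67 (SE 0.17), a 6.34-fold lower level. Each SE, here and below, is the size of the change divided by the square root of the F statistic of the edgeR test. It restates that statistic, and for the markers nothing is read from it.

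Marco (17167), the particle receptor, was the scarcest of the 5. It had 29, 95 and 54 counts in KO replicates 1, 2 and 3 (3.39, 11.7 and 6.95 CPM), and 347, 565 and 652 counts in Con replicates 1, 2 and 3 (26.3, 44.4 and 52.1 CPM). The groups did not overlap, but replicates of a group differed by up to 3.46-fold in KO and 1.98-fold in Con, the widest spread among the 5 genes. The log2 fold change was -2.48 (SE 0.39).

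Cd14 (12475), the lipopolysaccharide co-receptor, stood closest to the other group. Its counts were 1258, 1751 and 2758 in KO replicates 1, 2 and 3 (147, 216 and 355 CPM) and 6149, 7153 and 7469 in Con replicates 1, 2 and 3 (466, 562 and 597 CPM). KO replicate 3 was the highest of its group, and the lowest Con value was 1.31 times that library. Cd14 thus differed by -1.18 on the log2 scale (SE 0.27), or 2.27-fold, and this size exceeded that of 59.5% of all tested genes.

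Cd68 (12514), the lysosomal glycoprotein, had the largest difference of the 5 genes. It had 1042, 1677 and 1626 counts in KO replicates 1, 2 and 3 (122, 207 and 209 CPM) and 14729, 18066 and 18116 counts in Con replicates 1, 2 and 3 (1115, 1419 and 1448 CPM). The lowest Con value was 5.33 times the highest KO value. KO minus Con came to -2.89 on the log2 scale (SE 0.21), or 7.41-fold lower, larger in size than in 86.7% of all tested genes.

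Ms4a7 (109225), the MS4A protein, had 169, 379 and 245 counts in KO replicates 1, 2 and 3 (19.7, 46.7 and 31.5 CPM), and 1315, 1603 and 1605 counts in Con replicates 1, 2 and 3 (99.6, 126 and 128 CPM). KO replicate 2 was the highest of its group and the lowest Con value was 2.13 times that library. The log2 fold change was -1.85 (SE 0.26). Every library labelled KO lay below every library labelled Con in all 5 of the 5 genes, an order shared by 44% of tested genes. Since the genes were selected on this difference, nothing is read from that count. A lower count in bulk marrow can mean fewer cells of a type or less RNA in each cell, and these cannot be told apart here.

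**Figure D1:**
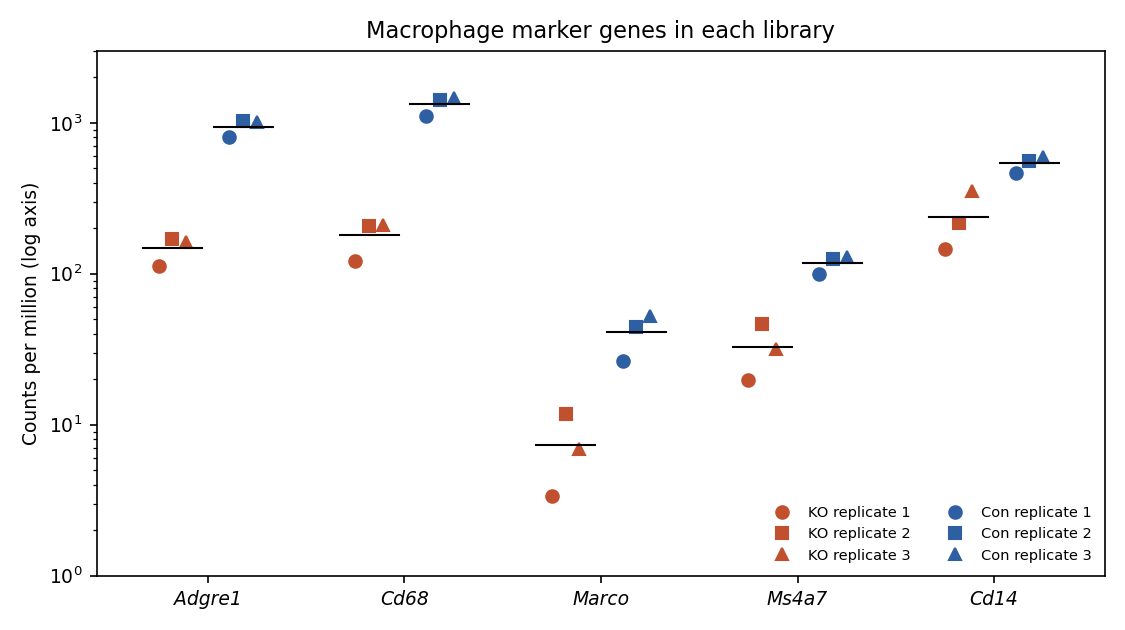
Level of the 5 genes in each library in CPM on a log axis, with KO in red and Con in blue. Symbols are replicates and black lines are group means. All 5 genes lie lower in KO, with the narrowest gap for Cd14, whose highest KO library reached 355 CPM against 466 CPM in the lowest Con library.

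Levels can be set against each other only per length of transcript. Divided by the length of the merged exons of each gene, Cd68 led in the libraries labelled Con with 1056 ± 147 CPM per kilobase (SD, n = 3), above Cd14 (330 ± 41.5), Adgre1 (292 ± 36.6), Ms4a7 (68.1 ± 9.21) and Marco (21.3 ± 6.89). Cd14 and Adgre1 overlapped in Con. In the libraries labelled KO the order began with Cd14 and Cd68, at 146 ± 64.5 and 143 ± 39.6 CPM per kilobase, which differed by less than their spread, followed by Adgre1 (46.0 ± 9.79), Ms4a7 (18.9 ± 7.81) and Marco (3.82 ± 2.17).

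The promoters of Cd68, Marco and Ms4a7 are shown. The markers were selected on their lower levels in KO, and among them these genes were not picked out further by level. The promoter source had no entry for Adgre1, and the window of Cd14 is not reported here. Each line gives the 250 bases before a start of the gene in RefSeq (for Ms4a7, the outer of 2 starts), build GRCm38.p6, minus strand, 5′ to 3′. Capitals mark matches on either strand to GAGGAA (the core of sites of the macrophage factor PU.1), TGANTCA (AP-1), CACGTG (E-box) or TTNNGCAA (C/EBP), none of which overlap here.
Cd68, chr11:69666171-69666420: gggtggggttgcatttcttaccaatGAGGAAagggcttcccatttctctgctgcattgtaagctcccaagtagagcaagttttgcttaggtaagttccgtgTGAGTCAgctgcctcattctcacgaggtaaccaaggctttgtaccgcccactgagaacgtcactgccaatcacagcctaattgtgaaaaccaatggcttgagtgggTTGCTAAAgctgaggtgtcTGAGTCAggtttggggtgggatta
Marco, chr1:120505025-120505274: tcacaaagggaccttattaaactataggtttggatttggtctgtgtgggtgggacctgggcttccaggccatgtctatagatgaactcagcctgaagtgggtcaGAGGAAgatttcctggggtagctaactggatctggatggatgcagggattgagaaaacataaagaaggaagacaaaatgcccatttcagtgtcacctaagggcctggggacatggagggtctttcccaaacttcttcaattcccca
Ms4a7, chr19:11336147-11336396: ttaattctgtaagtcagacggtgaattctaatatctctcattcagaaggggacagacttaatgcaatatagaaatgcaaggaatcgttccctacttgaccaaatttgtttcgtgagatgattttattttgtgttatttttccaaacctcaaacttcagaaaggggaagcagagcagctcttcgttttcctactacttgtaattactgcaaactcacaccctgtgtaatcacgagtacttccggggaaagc

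The Cd68 window held 1 PU.1 core (225 to 220 bases before the start), 2 AP-1 matches (149 to 143 and 24 to 18 bases before it) and 1 C/EBP match (43 to 36 bases before it). Of the 50 bases after that start, only the first 5 were found together in a GENCODE M21 transcript of Cd68. For Marco and both Ms4a7 starts all 50 were found, so the Cd68 positions are less certain. In the Marco window the only match was 1 PU.1 core, 146 to 141 bases before the start, and the printed Ms4a7 window held no match. RefSeq has a further start of Ms4a7 inside the gene, whose window (chr19:11334696-11334945, not printed) held 1 AP-1 match, 81 to 75 bases before that start. Of 32536 windows of this length in the RefSeq promoter table, 23.4% held the PU.1 core, 6.73% the AP-1 motif, 6.04% the E-box and 9.57% the C/EBP motif. The letters describe these windows and do not show binding.

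The counts of the 5 genes were made up differently in the groups. Together they took 0.0354%, 0.0587% and 0.0670% of all counts in KO replicates 1, 2 and 3, and 0.294%, 0.353% and 0.359% in Con replicates 1, 2 and 3. Within that sum Cd14 held 36.3%, 33.1% and 46.4% in KO replicates 1, 2 and 3, against 18.5%, 17.7% and 18.5% in Con replicates 1, 2 and 3. Cd68 held 30.1%, 31.7% and 27.3% in the libraries labelled KO, against 44.4%, 44.8% and 44.8% in those labelled Con. These shares do not depend on how libraries are scaled, and they did not overlap between the groups for either gene. Those of Adgre1 and Ms4a7 did not overlap either, but that of Marco did (0.838% to 1.80% in KO, 1.05% to 1.61% in Con). The shares restate the unequal differences given above, and sums of other genes were not set beside them, so nothing further is read from the lack of overlap.

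**Figure D2:**
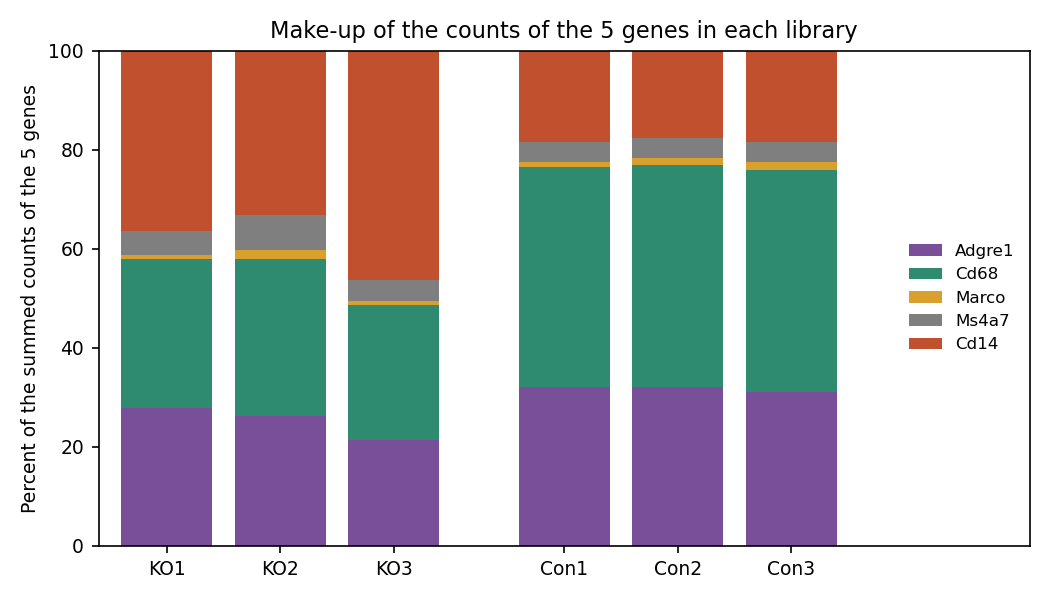
Share of each gene, in percent, in the summed counts of the 5 genes, with 1 bar per library and the KO libraries on the left. Cd14 takes 33.1% to 46.4% of the sum in KO and 17.7% to 18.5% in Con, and the 3 Con bars are nearly alike.

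Ratios between pairs of genes showed the same inequality. Per count of Cd68 there were 0.925, 0.828 and 0.779 counts of Adgre1 in KO replicates 1, 2 and 3, against 0.724, 0.719 and 0.694 in Con replicates 1, 2 and 3, a small difference without overlap. Cd68 counts were 0.828, 0.958 and 0.590 times those of Cd14 in the libraries labelled KO, against 2.40, 2.53 and 2.43 times in those labelled Con. Cd68 counts were 6.17, 4.42 and 6.64 times those of Ms4a7 in KO, against 11.2, 11.3 and 11.3 times in Con. Relative to Marco, Adgre1 overlapped between the groups, at 14.6 to 33.2 times in KO and 19.3 to 30.7 times in Con. The ratios of Cd68 to Marco and of Ms4a7 to Cd14 overlapped as well, and the remaining pairs did not.

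Within each group the same replicate was lowest for all 5 genes. KO replicate 1 lay below the mean of its group by 0.38 (Adgre1) to 0.91 (Marco) on the log2 CPM scale, and Con replicate 1 below the mean of its group by 0.21 (Cd14) to 0.58 (Marco). The highest KO library differed between genes. It was replicate 2 for Adgre1, Marco and Ms4a7, and replicate 3 for Cd14 and, by a narrow margin, Cd68.

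Other markers also set those libraries apart. KO replicate 1 had the highest share of counts from 17 neutrophil genes (17.5%, against 16.1% and 15.2% in KO replicates 2 and 3), the lowest from 12 erythroid genes (1.51%, against 2.18% and 2.14%) and the lowest from 18 resident macrophage genes (0.258%, against 0.420% and 0.364%). Con replicate 1 had the lowest share from 23 genes of activated macrophages (3.58%, against 5.04% and 4.99% in Con replicates 2 and 3) and the highest from 8 mast cell and basophil genes (0.316%, against 0.233% and 0.232%). The part of these in the levels of the 5 genes was not tested.

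**Figure D3:**
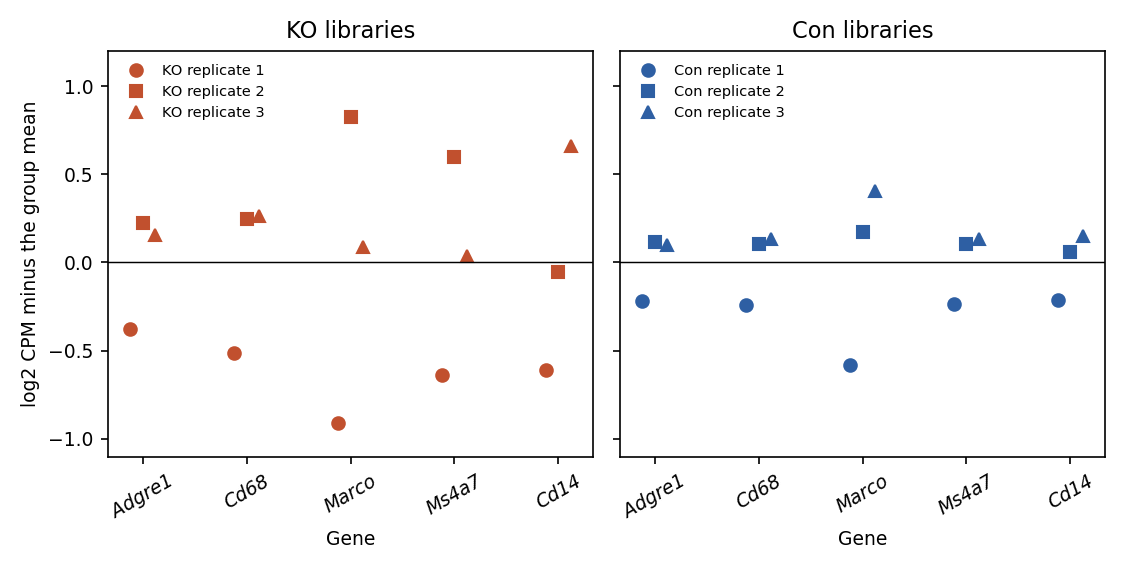
Difference of each library from its group mean in log2 CPM, by gene, with the KO libraries on the left and the Con libraries on the right. Replicate 1 is lowest for every gene in both panels, by up to 0.91 in KO and up to 0.58 in Con.

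The group difference also ran alongside other cell types. The 17 neutrophil genes took 15.2% to 17.5% of counts in the libraries labelled KO and 0.332% to 0.339% in those labelled Con, and none was at 0 in either group. The 12 erythroid genes took 1.51% to 2.18% in KO and 0.00952% to 0.0181% in Con. The sum of the 12 T and NK cell genes was 0.0211% to 0.0222% in KO and 0.00701% to 0.0119% in Con, where Ncr1 was at 0 in all 3 libraries. The 7 B cell genes took 0.00853% to 0.0248% in KO and 0.00494% to 0.00893% in Con, where Vpreb2 was at 0. All 17 neutrophil and all 12 erythroid genes rose. So did 5 of 7 B cell genes and 11 of 12 of the T and NK cell list, in which 1 gene, Cd5, fell. Over all tested genes 39.6% rose. Their part in the lower levels of the 5 markers was not tested.

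Relatives and partners of the 5 genes were taken from lists that leave the 5 out, and each count is read against the 39.6% higher and 42.4% lower over all tested genes. In the adhesion receptor family of Adgre1, 7 of 14 tested genes rose and 6 fell in the libraries labelled KO, with a median log2 fold change of 0.58. These shares, 50% and 42.9%, were near those of all tested genes. Adgre4, a relative of Adgre1 that is likewise a gene of myeloid cells, had 46.9 ± 10.3 CPM in KO and 0.128 ± 0.116 CPM in Con (SD, n = 3 each; log2 fold change 8.37, SE 0.37, edgeR adjusted p = 5.49e-08). Adgre5, which encodes CD97 of leukocytes, rose by 1.44 (SE 0.11), and Celsr3 by 1.52. Adgrl2, a latrophilin, fell, with 5.61 ± 1.41 CPM in KO and 97.0 ± 14.3 CPM in Con (-4.12, SE 0.18), as did Adgra3 (-2.61) and Celsr1 (-1.78).

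Scavenger receptors, the functional family of Marco, divided evenly, with 6 of 12 tested genes higher and 6 lower in KO (median -0.04, or 0.02 with DESeq2). The higher count was 5 under every alternative except without KO replicate 3, and the lower count stayed at 6. Msr1, the other class A receptor best known from macrophages, had 26.1 ± 4.66 CPM in KO and 171 ± 46.0 CPM in Con (-2.71, SE 0.22, adjusted p = 4.17e-06). Cxcl16, a chemokine that in its membrane form takes up oxidised lipoprotein, fell by 4.36 (SE 0.20), and Lrp1, a receptor for many ligands including apoptotic debris, by 2.13 (SE 0.16). In the other direction, Cd163, the hemoglobin-haptoglobin receptor, had 111 ± 33.1 CPM in KO and 0.103 ± 0.0417 CPM in Con (9.90, SE 0.42). Stab2, a hyaluronan receptor of sinusoidal endothelium, rose by 8.68 and Ager, the receptor for glycated proteins, by 4.66.

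Of the TLR4 complex and the other Toll-like receptors, with which Cd14 works, 5 of 12 tested genes rose and 5 fell (median 0.09, but -0.27 when library size alone was used, and -0.00 after upper-quartile scaling). At 41.7% in each direction, these shares were near those of all tested genes. Tlr4 itself had 78.3 ± 9.74 CPM in KO and 156 ± 18.4 CPM in Con (-0.99, SE 0.12, adjusted p = 3.65e-05). Hsp90b1, the chaperone that folds these receptors, fell by 0.93 and Tlr9, the receptor for DNA, by 1.53. Lbp, the serum protein that loads lipopolysaccharide onto CD14, had 193 ± 25.5 CPM in KO and 26.4 ± 1.56 CPM in Con (2.87, SE 0.12). Ly86, the MD-1 partner of the receptor homologue CD180, rose by 3.75 (SE 0.25), and Tlr5, the flagellin receptor, by 3.07.

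Downstream of the receptor, 5 of 15 adaptors and kinases rose and 7 fell (median -0.16). With library size as the only scaling, 3 rose and 9 fell. The adaptor genes Myd88 and Tirap rose by 1.37 (SE 0.08) and 1.40 (SE 0.10) and the kinase gene Irak4 by 1.21. Ticam1, which encodes the TRIF adaptor of the interferon branch, fell by 1.49 (SE 0.09), Irak3, an inhibitor of the pathway in macrophages, by 1.22 and Pik3ap1 by 1.11.

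The lysosomal list, which holds the relatives and neighbours of CD68, moved mostly one way. Of its 16 tested genes 14 were called lower and 2 higher in the libraries labelled KO (median -1.75), beside 42.4% lower and a median of -0.06 over all tested genes. Ctsl, the protease cathepsin L, had 246 ± 12.8 CPM in KO and 1474 ± 295 CPM in Con (-2.58, SE 0.15, adjusted p = 2.81e-07). Tpp1, a peptidase, fell by 2.31 and Mcoln1, a lysosomal calcium channel, by 1.59. Lamp1, a LAMP protein, had the smallest drop of the 14, -0.53 (SE 0.13, adjusted p = 0.00325). The exceptions were Tfeb, a transcription factor of lysosomal genes, at 1.83 (SE 0.11), and Ctsh, cathepsin H, at 0.90 (SE 0.12).

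In the family of Ms4a7, counted together with the related Tmem176 genes, 8 of 14 tested genes rose and 4 fell (median 1.94). Ms4a6d, a macrophage gene, fell with Ms4a7, with 35.3 ± 4.45 CPM in KO and 164 ± 32.9 CPM in Con (-2.21, SE 0.16), as did Ms4a14 (-3.20) and Ms4a2, the beta chain of the mast cell receptor for immunoglobulin E (-3.22). Ms4a6c had 286 ± 57.9 CPM in KO and 42.3 ± 7.03 CPM in Con (2.75, SE 0.17). Ms4a6b rose by 3.01, Ms4a4a by 2.12, Ms4a4b by 4.60 and Ms4a8a by 5.10. Reads of close copies such as Ms4a6b, Ms4a6c and Ms4a6d may be split between them, which would make their single values uncertain. Their counts were whole apart from Ms4a6c in Con replicate 2 (587.99), so the values show little such splitting.

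Of 19 tested growth factors, their receptors and transcription factors of macrophages, 9 rose and 10 fell. Csf1, the growth factor on which macrophages depend, had 40.2 ± 2.05 CPM in KO and 267 ± 1.39 CPM in Con (-2.73, SE 0.08, adjusted p = 6.58e-09). Csf2rb2, a receptor chain for interleukin 3 in mouse, fell by 3.75 and the transcription factor gene Bhlhe41 was at -5.59. Counts of Csf2rb2 and Csf2rb were fractional in every library, so reads may be split between them and the single value of Csf2rb2 is uncertain. Spi1, which encodes PU.1, had 559 ± 29.5 CPM in KO and 182 ± 12.99 CPM in Con (1.62, SE 0.09, adjusted p = 1.98e-07). Irf8, a monocyte lineage factor, rose by 2.47 (SE 0.12).

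Other macrophage genes parted from the 5. Of 18 tested genes of resident macrophages 17 rose in the libraries labelled KO and none fell, with a median of 4.75, beside 39.6% higher over all tested genes. Slc40a1, the iron exporter ferroportin, had 407 ± 19.4 CPM in KO and 17.9 ± 2.37 CPM in Con (4.51, SE 0.12, adjusted p = 3.98e-09), Vcam1, an adhesion molecule of island macrophages, 541 ± 100.4 CPM and 20.7 ± 1.21 CPM, and Apoe 650 ± 114 CPM and 7.11 ± 0.995 CPM, again in KO and Con. Mertk, the receptor by which macrophages recognise apoptotic cells, rose by 0.97 (SE 0.14). Siglec1 was the 1 gene that did not pass (-0.16, SE 0.29, adjusted p = 0.618). The list as a whole took 0.258% to 0.420% of counts in KO and 0.0316% to 0.0347% in Con. It was chosen with earlier results of these data known, so its count is not independent evidence.

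Monocyte genes followed that direction, with 15 of 16 higher and none lower (median 3.20), beside 39.6% higher over all tested genes. Ccr2, the receptor that draws monocytes out of the marrow, had 329 ± 32.4 CPM in KO and 26.1 ± 1.33 CPM in Con (3.66, SE 0.10). F13a1, a coagulation factor subunit made by monocytes, rose by 5.05. The monocyte list was likewise chosen with earlier results known, so its count is not independent evidence.

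Genes of activated macrophages went with the 5 markers. Of 23 tested, 22 fell and none rose (median -2.97), beside 42.4% lower and a median of -0.06 over all tested genes. Arg1 (arginase), Nos2 (nitric oxide synthase) and Saa3 (a serum amyloid) had the smallest p-values, and Saa3 had 5.75 ± 1.26 CPM in KO and 412 ± 18.1 CPM in Con (-6.16, SE 0.14, adjusted p = 2.39e-09). Il10 was the 1 gene that did not pass (adjusted p = 0.0994), with 1.55 ± 1.14 CPM in KO and 3.06 ± 0.681 CPM in Con. The list took 0.182% to 0.211% of counts in KO and 3.58% to 5.04% in Con. It was drawn up with the direction of several of its genes already known from these libraries, so its count is not independent evidence.

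Receptors of phagocytosis and the proteins that coat their targets split. Of 23 tested, 14 rose and 8 fell (median 0.97). C3ar1, the receptor for the complement fragment C3a, had 5.02 ± 1.17 CPM in KO and 385 ± 55.1 CPM in Con (-6.26, SE 0.18, adjusted p = 6.05e-09). Clec4n, which encodes the fungal receptor dectin-2, fell by 5.17 and Fcgr2b, the inhibitory antibody receptor, by 1.40. C1qa, a chain of the complement protein C1q, had 210 ± 65.0 CPM in KO and 1.25 ± 0.0344 CPM in Con (7.38, SE 0.31). Tyrobp, an adaptor of activating receptors, rose by 1.86 (SE 0.11) and Clec4a2 by 2.99. Itgam, the CD11b integrin chain of neutrophils as well as macrophages, was higher by 0.40 (SE 0.13, adjusted p = 0.017), but not with library size only (0.04, adjusted p = 0.731), without KO replicate 1 (adjusted p = 0.0534) or without KO replicate 3 (0.0548).

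**Figure D4:**
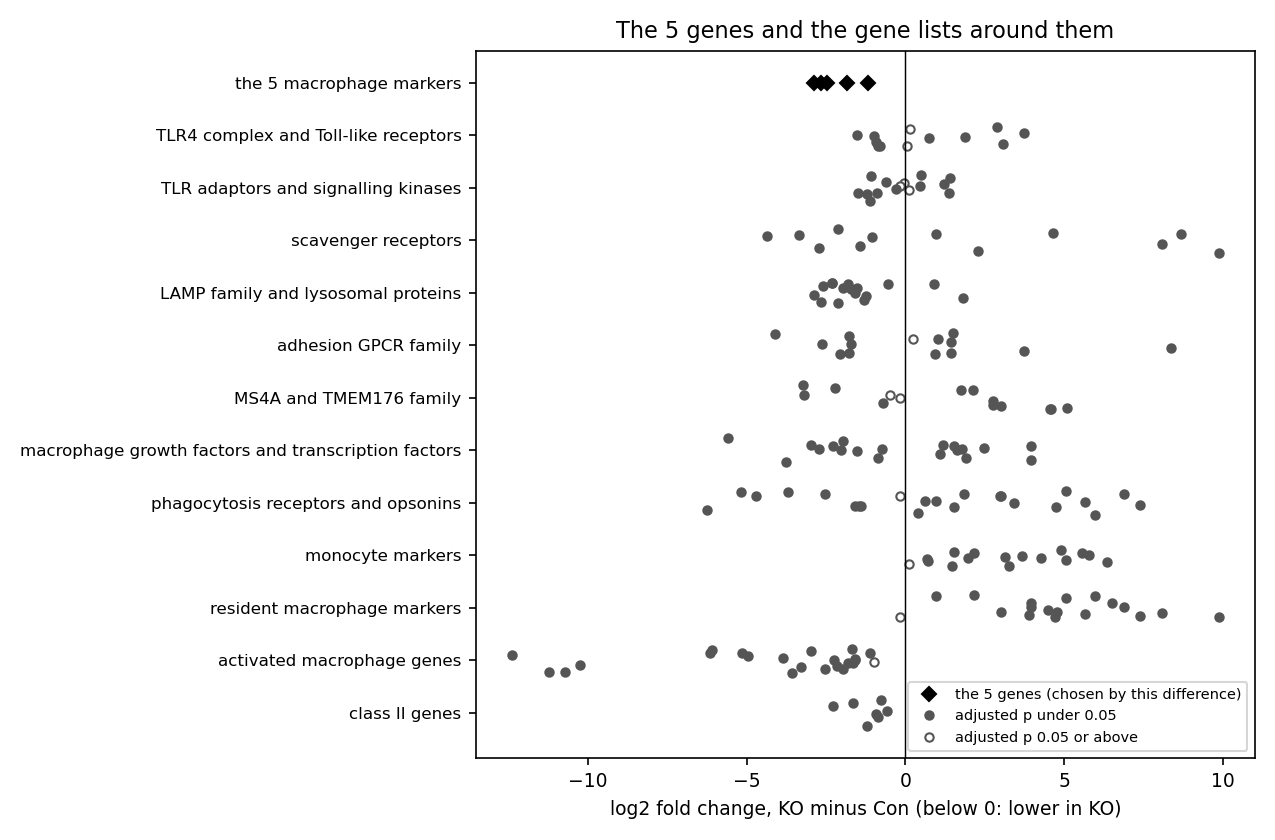
log2 fold change, KO minus Con, of the 5 markers (black diamonds) and of each tested gene of 12 lists (circles, filled where the adjusted p was under 0.05), with 1 row per list. The 5 markers lie between -2.89 and -1.18, on the side of the activated macrophage genes (median -2.97) and opposite the resident macrophage genes (median 4.75). Markers and lists were chosen with earlier results of these data known, so these sides are not independent evidence.

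Class II antigen presentation genes, also made by macrophages, all fell, 7 of 7 tested (median -0.94), beside 42.4% lower over all tested genes. The count was 5 without KO replicate 2 and without Con replicate 1. Within Con their share of counts was highest in replicate 1 (0.195%, against 0.135% and 0.142% in replicates 2 and 3), the library where the markers were lowest. H2-Oa fell by 2.29, their regulator Ciita was at -1.64 and H2-DMb2 at -1.20. Cd74, the invariant chain, had 349 ± 143 CPM in KO and 668 ± 87.8 CPM in Con (-0.94, SE 0.26, adjusted p = 0.00778). H2-Aa was at -0.59 (SE 0.24, adjusted p = 0.0429), and its adjusted p was above 0.05 in 8 of the 13 alternatives, up to 0.179 without Con replicate 1.

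Among all tested genes, those whose profile over the 6 libraries lay nearest to a marker were named by the Euclidean distance between log2 CPM profiles centred on their means, in which the group difference weighs most. Nearest to Adgre1 were Armcx2 (distance 0.24), Tubb6 (0.26) and Ccl9 (0.26), and nearest to Cd68 were Ankrd24 (0.20), Vwf (0.21) and Abca5 (0.22). Ccl9, a chemokine gene, had 290 ± 46.5 CPM in KO and 1658 ± 166 CPM in Con. The nearest to Cd14 was Atf3, a stress-induced transcription factor gene (0.20), with 186 ± 73.7 CPM in KO and 459 ± 54.4 CPM in Con, followed by Oaf (0.29) and Slc35e4 (0.30). The genes nearest to Marco were Uchl1 (0.52), Slc46a1 (0.59) and Afp (0.66), and those nearest to Ms4a7 were Rhpn2 (0.33), Il12b (0.36) and Rnd2 (0.42). Rhpn2 and Il12b were both near 1 CPM in Con, where counts are few. Their log2 fold changes, -3.14 and -2.97, were larger in size than that of Ms4a7 (-1.85). Their nearness rests in part on the prior count in log2 CPM, which shrinks differences at such low levels.

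The 5 markers were not each other's nearest genes. Adgre1 and Cd68 lay 0.35 apart, with 16 tested genes nearer to Adgre1 than Cd68 was. Marco and Ms4a7 lay 0.96 apart, with 16 genes nearer to Marco. Cd14 lay 1.84 from Adgre1, 2.09 from Cd68 and 1.98 from Marco, in each case the farthest of the 5, and 1.21 from Ms4a7, which lay farther from Cd68 (1.30).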

How the data were processed

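The deposited table holds the authors' estimated counts per gene, unscaled, with 1 column for each library, per the file headers. The labels' protocols name TRIzol extraction and an mRNA library kit of BGI. No aligner or counter is named in what was used here. GRCh38, a human build, is listed by the submitters' processing notes although symbols and IDs are of mouse, so no gene coordinates are given from it. Of 9295 genes, 1449 (15.6%) had a value that is not whole, and counts were rounded before testing.

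Genes were compared with edgeR 4.0.16 in R 4.3.3 (TMM scaling, filterByExpr, robust quasi-likelihood test, two-sided, no covariate). P-values were adjusted with Benjamini-Hochberg over all 8358 tested genes, with a threshold of 0.05. The procedure was also run on simulated data in which far fewer genes changed than were called here. That run therefore does not show how well the scaling holds in these libraries. CPM are counts over library totals times TMM factors (0.876 to 1.17), and log2 CPM used a prior count of 2. Totals were 8875022 to 11436216 counts. Exon lengths are from GENCODE M21. Promoter windows are from RefSeq.

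The 5 genes and all lists were chosen with earlier results of these data known, so no list count is independent evidence. Genes named are the 5, Papola, fixed partners and relatives, in every list the 3 lowest adjusted p per direction, and the 3 nearest to each marker. Siglec1 and Il10, which did not pass, and Ncr1 and Vpreb2, at 0 in Con, were named after their values were seen. Ly96, Lamp2, Csf1r and Fcgr1 were not analysed here, and some genes that the rule names are not reported here. Alternatives were DESeq2 1.42.0, library size only, upper-quartile scaling, no count filter, at least 50 counts in 3 libraries, the replicate number as a block, each library left out, and Con replicates 2 and 3 summed.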

Additional observations from a re-analysis of the deposited data

How the results depend on the processing

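All 5 markers were lower in the libraries labelled KO under every alternative run. Values moved by more than the replicate spread only with library size as the only scaling, to -3.02 for Adgre1 and -3.24 for Cd68. Leaving out 1 library gave -2.78 to -2.50 for Adgre1, -3.02 to -2.68 for Cd68, -3.00 to -2.13 for Marco, -2.21 to -1.59 for Ms4a7 and -1.58 to -0.93 for Cd14, with the Cd14 extremes reached without KO replicate 3 and without KO replicate 1. With Con replicates 2 and 3 summed, Adgre1 was at -2.61 and Cd14 at -1.13. List counts stayed within 1.5 times the reported ones except for Toll-like receptors higher in KO (3 with at least 50 counts in 3 libraries) and adaptors and kinases higher in KO (3 with library size only). Of the marker lists of other cell types, those of B cells, T and NK cells (7 higher, none lower) moved further with at least 50 counts in 3 libraries, and that of megakaryocytes with library size only and without KO replicate 2. Papola changed sign with library size only (-0.13, adjusted p = 0.186, against 0.22, adjusted p = 0.0291), and its call was lost in 7 further alternatives. The replicate block gave 3270 genes higher and 3496 lower and put Adgre1 at -2.68 and Cd14 at -1.26. Of the calls of named genes, it ended only that of H2-Aa. Deviations of same-numbered libraries did not correlate (-0.002, 0.028 and -0.004), and no library correlated best with its own number, so the numbers are not read as pairs. Of 1477 values of 114 other named genes under the alternatives, 1449 kept direction and call, 27 lost the call and 1 turned. Marco, with 29 counts in KO replicate 1, is the marker most limited by depth.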

Other observations

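Further cell types that share some of these markers are given by value. The 4 osteoclast genes took 0.0151% to 0.0169% of counts in the libraries labelled KO and 0.0323% to 0.0439% in those labelled Con, with 1 higher (Nfatc1, 1.09) and 3 lower (Atp6v0d2, -3.84, Dcstamp, -3.35, and Ctsk, -2.89). Of 8 dendritic cell genes 5 rose and 2 fell. Siglech, a receptor of plasmacytoid dendritic cells, had 147 ± 35.9 CPM in KO and 0.258 ± 0.111 CPM in Con (SD, n = 3 each), and Ccr7, which guides mature dendritic cells to lymph nodes, 7.78 ± 2.64 CPM in KO and 71.3 ± 20.5 CPM in Con. All 8 mast cell and basophil genes fell. Of 7 megakaryocyte genes 3 rose and 1 fell, and of 6 stromal and endothelial genes 5 rose and 1 fell.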
